A study of Mus musculus with 3 samples.

Results

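Chemokines and their receptors were followed across the cell types of the mouse ascending aorta, in which 67 of the 32285 rows of the feature list belong to them. Members were all rows whose symbol begins with Ccl, Cxcl, Cx3cl, Xcl, Ccr, Cxcr, Cx3cr, Xcr or Ackr directly followed by a digit, without symbols that contain a dash. They comprised 44 ligand rows, 19 receptor rows and 4 atypical receptor rows, or 61 symbols, and 46 of the rows held at least 100 unique molecular identifiers (UMIs, each standing for 1 captured transcript) over the 3 libraries. These 46 are described below, and the remaining 21 are named at the end.

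Each of 3 groups of male mice gave 1 droplet library at postnatal day 45 (P45), and all were on the C57BL/6J background. WT mice carried normal Fbn1 alleles. The mgR mice were Fbn1mgR/mgR, homozygous for an allele that lowers the amount of fibrillin-1, a matrix glycoprotein whose mutation causes Marfan syndrome, and they develop dissecting thoracic aneurysms. The mgR-LOS mice had the same genotype and received losartan, a blocker of the angiotensin II type 1 receptor, at 0.6 g/L in drinking water from P16, whereas the labels do not state whether the mgR library came from mice given vehicle. Aortas of several mice were pooled before each digestion, so every condition is a single library, no difference between conditions could be tested, and all intervals below are 95% exact intervals that cover counting error only. Levels are given as CPM, the UMIs of a gene scaled to a total of 1000000 UMIs of the cells considered.

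Chemokines are small secreted proteins that steer leukocytes along concentration gradients by way of G protein-coupled receptors on the receiving cell. Inflammatory members such as Ccl2 and Cxcl1 are made on demand and draw monocytes and neutrophils, whereas homeostatic members such as Cxcl12, Ccl19 and Ccl21a are made constantly and place cells in tissues and lymphoid organs. Atypical receptors (Ackr) bind chemokines without G protein signaling and clear them from the tissue. In the aorta, fibroblasts, endothelial cells and resident macrophages can all be sources, and chemokine-driven entry of monocytes is a known part of aneurysm formation.

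Promoters of 5 ligands are shown as examples of inducible and homeostatic members. Among them is Cxcl3, whose ratio between mgR and WT fibroblasts, given below, was among the largest. Cxcl1, Cxcl2 and Cxcl3 are neighboring genes of the neutrophil-attracting family, Cxcl10 is an interferon-induced ligand, and Cxcl12 is a homeostatic ligand. Each line gives the 250 bases before the transcription start from RefSeq, 5′ to 3′ on the gene's strand (build GRCm38.p6), in lower case, with matches to the kappaB consensus (the binding motif of NF-kappaB) and to a paired GAAA motif of interferon-responsive promoters (GAAA and, after any 2 bases, the same letters again) in capitals. The positions are chr5:90890995-90891244 (+ strand) for Cxcl1, chr5:90903649-90903898 (+ strand) for Cxcl2, chr5:90785851-90786100 (+ strand) for Cxcl3, chr5:92348890-92349139 (- strand) for Cxcl10 and chr6:117168285-117168534 (+ strand) for Cxcl12.
Cxcl1: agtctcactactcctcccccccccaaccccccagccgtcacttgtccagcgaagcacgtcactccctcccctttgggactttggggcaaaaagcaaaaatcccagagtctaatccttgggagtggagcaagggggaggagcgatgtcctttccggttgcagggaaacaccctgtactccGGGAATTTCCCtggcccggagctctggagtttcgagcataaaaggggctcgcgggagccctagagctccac
Cxcl2: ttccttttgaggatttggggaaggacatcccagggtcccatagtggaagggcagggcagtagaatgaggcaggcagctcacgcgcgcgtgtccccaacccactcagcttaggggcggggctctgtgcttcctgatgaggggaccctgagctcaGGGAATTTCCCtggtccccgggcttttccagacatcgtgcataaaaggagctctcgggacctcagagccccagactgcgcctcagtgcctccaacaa
Cxcl3: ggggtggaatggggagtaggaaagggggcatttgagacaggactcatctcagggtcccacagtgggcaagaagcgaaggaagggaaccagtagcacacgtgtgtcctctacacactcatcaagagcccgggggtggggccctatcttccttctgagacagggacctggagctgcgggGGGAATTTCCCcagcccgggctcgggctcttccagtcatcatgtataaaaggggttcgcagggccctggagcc
Cxcl10: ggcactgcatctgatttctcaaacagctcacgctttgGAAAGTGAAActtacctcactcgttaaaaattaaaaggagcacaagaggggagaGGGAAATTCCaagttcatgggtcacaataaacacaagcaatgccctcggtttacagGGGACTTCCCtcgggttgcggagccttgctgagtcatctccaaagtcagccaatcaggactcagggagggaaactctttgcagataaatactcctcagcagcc
Cxcl12: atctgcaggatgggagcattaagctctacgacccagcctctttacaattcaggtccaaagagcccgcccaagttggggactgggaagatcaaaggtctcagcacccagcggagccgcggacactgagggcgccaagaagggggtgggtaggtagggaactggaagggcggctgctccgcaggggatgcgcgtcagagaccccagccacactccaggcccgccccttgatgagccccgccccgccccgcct
The run in capitals had the same letters in Cxcl1, Cxcl2 and Cxcl3, where it matched the kappaB consensus on both strands in overlapping positions, and it began 71, 97 and 73 bases before the start, respectively. Cxcl10 held 2 separate kappaB matches and 1 paired GAAA match, and the Cxcl12 window held neither motif. The windows of Cxcl9 and Cxcl13 held no match to either motif. Of the 46 described members, 35 had a promoter entry. A kappaB match on either strand was found in 6 of these 35 (17.1%, namely Ackr2, Ccl9, Cxcl1, Cxcl10, Cxcl2 and Cxcl3) and in 3.75% of all 27025 genes with an entry. The paired GAAA motif was found in 3 of 35 (8.57%) against 3.04% of genes, TATAAA in 11 (31.4%) against 13% and the AP-1 motif TGANTCA in 2 (5.71%) against 6.87%. A match says only that the letters occur in the window.

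The libraries held 5361 WT, 8076 mgR and 12721 mgR-LOS barcodes after filtering, with medians of 13636, 12410.5 and 8334 UMIs per barcode, and 11 to 34 barcode sequences recurred between pairs of libraries. Fbn1 was lower in both mutant libraries, at 249 CPM in WT, 75.8 CPM in mgR and 67.2 CPM in mgR-LOS in smooth muscle cell (SMC)-like barcodes, and at 0.432 (mgR) and 0.349 (mgR-LOS) times the WT level in fibroblast-like barcodes. Barcodes were assigned to cell classes by marker genes that are no members. The SMC-like gate (at least 64 UMIs of 8 SMC markers such as Myh11 and Acta2 per 10000) held 3635, 2883 and 7784 barcodes in WT, mgR and mgR-LOS, the fibroblast-like gate 1306, 2350 and 3082, the macrophage-like gate 88, 977 and 531, the blood endothelial (EC)-like gate 75, 125 and 112 and the lymphatic EC-like gate 22, 72 and 41. The T cell-like gate held 21, 132 and 66, the dendritic cell-like gate 5, 92 and 54, the monocyte-like gate 1, 55 and 4, the neutrophil-like gate 4, 51 and 10 and the B cell-like gate 5, 155 and 6, so WT levels in the last 4 rest on at most 5 barcodes and are not given. Doubling all thresholds would take 4, 13 and 8 barcodes out of the SMC gate, 46, 162 and 133 out of the fibroblast gate and 2, 47 and 29 out of the macrophage gate. Mixed barcodes made up 2.52%, 10.7% and 6.37% and were left out of the gates. They met more than 1 class, or reached the SMC or fibroblast UMI limit (64 per 10000 for each) without passing either gate. The SMC gate also required SMC markers at least 4 times fibroblast markers, and the fibroblast gate fibroblast markers at least 2 times SMC markers. Neither leukocyte nor EC markers were met by 85.19%, 69.1% and 77.04% of mixed barcodes. Mixed barcodes held 2.473%, 8.593% and 11.05% of all ligand UMIs in WT, mgR and mgR-LOS.

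Macrophages and fibroblasts held most of the ligand transcripts in every library. Of all ligand UMIs, the macrophage gate held 42.1%, 53.05% and 41.5% in WT, mgR and mgR-LOS, and the fibroblast gate held 34.7%, 25.9% and 32.2%. Within the macrophage gate the summed ligands stood at 22340, 21300 and 17700 CPM, within the fibroblast gate at 1092, 2977 and 2027 CPM and within the SMC gate at 128, 264 and 203 CPM. Macrophages thus carried similar summed levels in the 3 libraries, while the fibroblast and SMC sums were highest in mgR and lowest in WT. In the mgR library, over 12 named gates with at least 20 barcodes (red cell-like, other leukocyte, mixed and ungated barcodes left out), 9 of the 30 described ligands had their highest level in the macrophage gate (Ccl2, Ccl6, Ccl7, Ccl8, Ccl9, Ccl12, Ccl24, Cxcl13 and Cxcl16). The neutrophil gate was highest for 5 (Ccl3, Ccl4, Cxcl2, Cxcl3 and Cxcl10), the fibroblast gate for 5 (Ccl11, Ccl19, Cxcl1, Cxcl5 and Cxcl12) and the T cell gate for 5 (Ccl1, Ccl5, Ccl17, Ccl22 and Xcl1). All T cell UMIs of Ccl17 and Ccl22 lay in a single barcode, and dendritic cells were next for both, at 65.2 CPM. A single barcode also held most macrophage UMIs of Cxcl13. Blood ECs were highest for Cx3cl1 and Ccl25 (10 UMIs), dendritic cells for Cxcl9, monocytes for Cxcl14 (6 UMIs), lymphatic ECs for Ccl21a and SMCs for Ccl27a. Other leukocytes held Ccl9 at 1054 CPM, and ungated barcodes held Ccl2 at 2285 CPM and Cxcl5 at 112 CPM, above the highest named gate. Some of these orders lay within counting error: Cx3cl1 in mgR stood at 48.2 CPM in blood ECs and 45.9 CPM in fibroblasts, and Cxcl12 at 482 CPM in fibroblasts and 454 CPM in blood ECs.

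**Figure D1:**
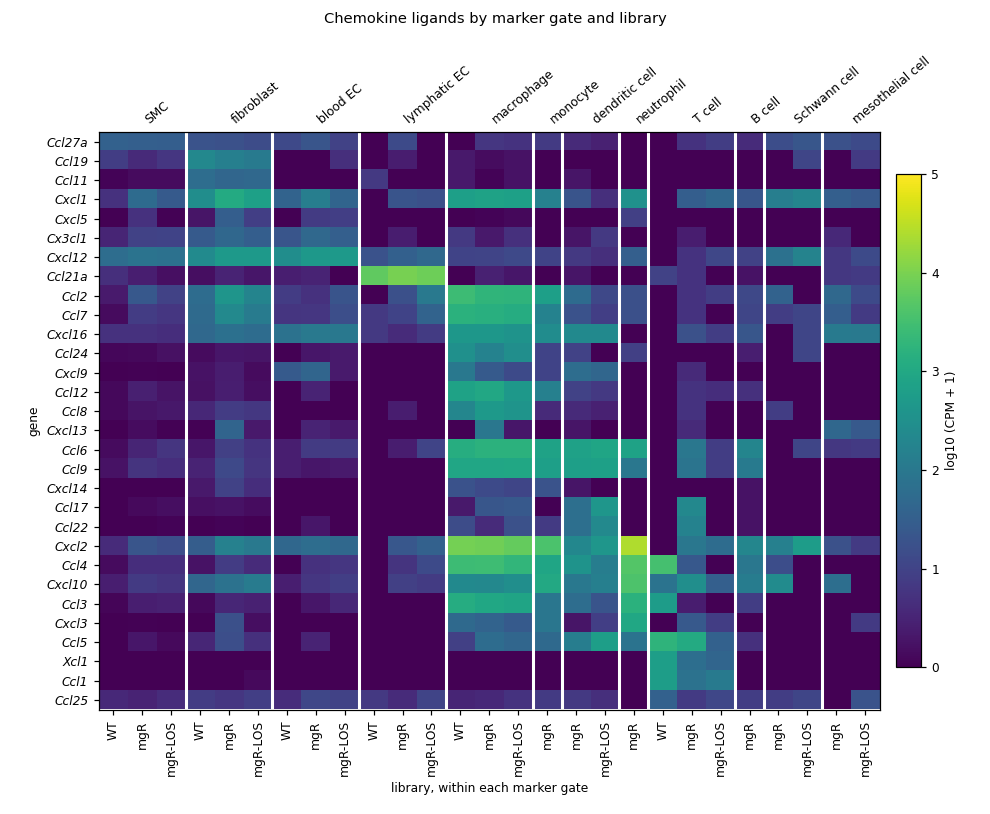
Heat map of the 30 described chemokine ligands (rows) in each marker gate and library with at least 20 barcodes (columns), colored by log10 of CPM + 1. Ccl21a stood out in the lymphatic EC columns (6042 to 9389 CPM), Cxcl2 in the macrophage, monocyte and neutrophil columns, and Ccl19 and Ccl11 in the fibroblast columns.

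The stromal and endothelial classes differed in some ligands and shared others. Ccl21a, which guides Ccr7-bearing dendritic and T cells into lymphatics, stood at 6042 CPM in WT, 9389 CPM in mgR and 7984 CPM in mgR-LOS in lymphatic ECs, whereas the next levels in mgR were 82.9 CPM in red cell-like barcodes and 5.37 CPM in mesothelial cell-like barcodes, and the feature list also holds near-identical copies of the gene, so that its counts may be incomplete. Ccl19, the second Ccr7 ligand, stood at 211 CPM in WT, 141 CPM in mgR and 115 CPM in mgR-LOS in fibroblasts and Ccl11, an eosinophil attractant that acts on Ccr3, at 59.9 CPM in WT, 43.5 CPM in mgR and 47.1 CPM in mgR-LOS. Neither differed 2-fold between libraries in that gate. Cxcl12, which retains Cxcr4-bearing cells in tissues, was shared by fibroblasts (245, 482 and 490.5 CPM in WT, mgR and mgR-LOS), blood ECs (282, 454 and 515 CPM) and SMCs (60.2, 80.1 and 73.8 CPM), and stood at only 9.202, 9.405 and 11.6 CPM in macrophages. Ccl27a was spread over SMCs (34.9, 31.8 and 30.8 CPM), fibroblasts (17.6, 16.6 and 13.8 CPM) and blood ECs (19.9 CPM in mgR). Near-identical copies in the feature list make its counts uncertain. Ccl25, best known from thymus and gut, was low in all of these gates, at 6.89, 5.28 and 7.46 CPM in fibroblasts and 2.798, 2.19 and 3.22 CPM in SMCs.

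The receptors lay mainly on leukocytes and the atypical receptors on stroma and endothelium. The macrophage gate held 61.4%, 58.4% and 46.2% of all receptor UMIs in WT, mgR and mgR-LOS, and the fibroblast gate held 80.3%, 81.6% and 78.3% of the atypical receptor UMIs. In fibroblasts the classical receptors summed to only 10.9, 8.06 and 9.56 CPM, with Cxcr4 at 8.88, 4.91 and 4.197 CPM, and in SMCs to 0.699, 2.94 and 2.93 CPM.

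**Figure D2:**
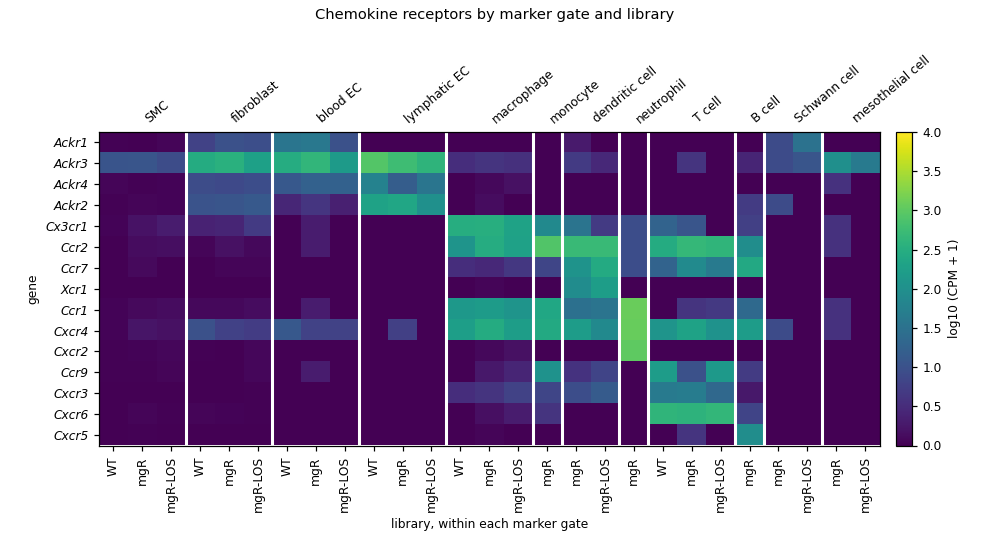
Heat map of classical and atypical chemokine receptors (rows) in each marker gate and library with at least 20 barcodes (columns), colored by log10 of CPM + 1. Ackr3 was visible in the fibroblast, blood EC and lymphatic EC columns, Ackr2 in the lymphatic EC columns, and the classical receptors in the leukocyte columns.

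Ackr3, which binds and removes Cxcl12, was the atypical receptor with most UMIs. It stood at 289 CPM in WT, 341 CPM in mgR and 185 CPM in mgR-LOS in fibroblasts, at 300.2, 422 and 152 CPM in blood ECs and at 857, 564 and 394 CPM in lymphatic ECs, against 9.97, 10.4 and 7.57 CPM in SMCs and 2.301, 3.06 and 2.63 CPM in macrophages. The mgR-LOS level was the lowest of the 3 libraries in each of the 3 expressing gates. The ratio of mgR-LOS to mgR was 0.543 (95% interval 0.524 to 0.562) in fibroblasts and 0.361 (95% interval 0.292 to 0.444) in blood ECs, and that of mgR-LOS to WT was 0.4599 (95% interval 0.3599 to 0.587) in lymphatic ECs. The lymphatic EC ratio was not past 2-fold under every alternative. After every barcode was thinned to 1000 UMIs, 21.1%, 22.2% and 13.8% of fibroblasts in WT, mgR and mgR-LOS held an Ackr3 UMI (58.9%, 62.9% and 42.3% without thinning), compared with 0%, 0.512% and 0% of macrophages. Ackr2, which degrades inflammatory CC chemokines in lymphatic vessels, stood at 201 CPM in WT, 231 CPM in mgR and 100.2 CPM in mgR-LOS in lymphatic ECs, a ratio of 0.433 (95% interval 0.286 to 0.638) for mgR-LOS over mgR that was not past 2-fold under every alternative, and at 9.56, 10.3 and 12.1 CPM in fibroblasts. Ackr4, a scavenger of Ccl19, Ccl21 and Ccl25, stood at 7.51, 6.75 and 7.81 CPM in fibroblasts, 11.7, 16.8 and 16.5 CPM in blood ECs and 57.5, 13.9 and 34.4 CPM in lymphatic ECs. Ackr1, which marks venules and carries chemokines across them, stood at 35.03, 38.8 and 8.898 CPM in blood ECs, but 1 barcode held 85.7%, 59.5% and 85.7% of those UMIs. Blood ECs held 21 of the 99 Ackr1 UMIs in WT and 37 of 328 in mgR. Fibroblasts were the next gate in these libraries, at 5.19 and 8.84 CPM. In mgR-LOS the highest Ackr1 level was in Schwann cells, at 30.7 CPM from 3 UMIs.

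Among the classical receptors, Cx3cr1, the fractalkine receptor, stood at 314 CPM in WT, 316 CPM in mgR and 201 CPM in mgR-LOS in macrophages. Ccr2, which brings monocytes out of the bone marrow and into inflamed tissue, stood at 116, 293 and 197 CPM in macrophages, at 283, 454 and 419 CPM in T cells, at 833 CPM in the mgR monocytes, and at 513 and 515 CPM in mgR and mgR-LOS dendritic cells. In macrophages it was 2.52 (95% interval 2.07 to 3.11) times as high in mgR as in WT, and the thinned shares were 11.4%, 20.2% and 12.1% in WT, mgR and mgR-LOS, with at most 0.0347% of SMCs holding a UMI in any library. Ccr1, which binds Ccl3 and Ccl5, stood at 136, 154 and 118 CPM in macrophages and 1203 CPM in mgR neutrophils. Cxcr4, the signaling receptor for Cxcl12, stood at 174, 291 and 170 CPM in macrophages and 1172 CPM in mgR neutrophils. Cxcr2, through which Cxcl1, Cxcl2, Cxcl3 and Cxcl5 act, stood at 1029 CPM in mgR neutrophils and at or below 0.525 CPM in the macrophage gate of every library.

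Cxcr6 and Cxcr3 were highest in T cells in every library. Cxcr6, a receptor of tissue-resident T cells that binds Cxcl16, stood at 416 CPM in WT, 388 CPM in mgR and 451 CPM in mgR-LOS in T cells, and Cxcr3, the receptor of Cxcl9 and Cxcl10 on activated T cells, at 44.3, 46.4 and 21.3 CPM. Ccr9, a homing receptor for gut, stood at 159, 8.99 and 142 CPM in T cells and was 15.8 (95% interval 6.66 to 45.6) times as high in mgR-LOS as in mgR. It rested on 7, 2 and 16 barcodes, and in mgR its highest level was in monocytes, at 110.1 CPM from 6 barcodes. Ccr7 stood at 258 CPM and Cxcr5, the follicular B cell receptor for Cxcl13, at 89.1 CPM in mgR B cells. Ccr7 in dendritic cells stood at 112 CPM in mgR and 277 CPM in mgR-LOS, and Xcr1, which marks cross-presenting dendritic cells, at 88.2 and 167 CPM.

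Fibroblasts carried more ligand transcript in mgR than in WT, for neutrophil and monocyte attractants alike. Of the 33 members that could be compared there, 16 were past 2-fold higher in mgR (ratio of at least 2, an interval that leaves out 1, and at least 20 UMIs over both libraries), and 0 were past 2-fold lower. Over all genes of this gate, 4.7% were past 2-fold higher and 4.48% lower. All 16 were ligands: Ccl2, Ccl3, Ccl4, Ccl5, Ccl6, Ccl7, Ccl8, Ccl9, Ccl12, Ccl21a, Cxcl1, Cxcl2, Cxcl3, Cxcl5, Cxcl13 and Cxcl14. Each of them remained past 2-fold when the barcode with most of its UMIs was left out and under all 8 alternatives for the limits on barcodes, the classes and the scaling, which is what is meant below by a call that remained. With at least 100 UMIs also required, 13 of the 16 stayed past 2-fold, without Ccl3, Ccl12 and Ccl21a.

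Cxcl1, a neutrophil attractant, stood at 279 CPM in WT, 1156 CPM in mgR and 707 CPM in mgR-LOS in fibroblasts. WT was the lowest library and mgR the highest, with ratios of 4.15 (95% interval 4.01 to 4.29) for mgR over WT and 0.612 (95% interval 0.601 to 0.623) for mgR-LOS over mgR. The thinned share of fibroblasts with a Cxcl1 UMI was 12.2%, 37.4% and 25.5% in WT, mgR and mgR-LOS (26.9%, 62.3% and 45.1% unthinned), against 0.441%, 3.82% and 1.81% of SMCs. Ccl2, the main ligand of Ccr2, stood at 57.5 CPM in WT, 410.2 CPM in mgR and 176 CPM in mgR-LOS, with ratios of 7.14 (95% interval 6.65 to 7.66) for mgR over WT and 0.43 (95% interval 0.415 to 0.445) for mgR-LOS over mgR, and thinned shares of 2.14%, 11.96% and 6.62%. Ccl7, another Ccr2 ligand, stood at 52.4 CPM in WT, 229 CPM in mgR and 119 CPM in mgR-LOS, a ratio of 4.37 (95% interval 4.05 to 4.71) for mgR over WT. Cxcl2, which acts on Cxcr2 like Cxcl1, stood at 29.2 CPM in WT, 154 CPM in mgR and 103 CPM in mgR-LOS, a ratio of 5.25 (95% interval 4.76 to 5.81). For these 4 ligands the mgR-LOS level lay between those of WT and mgR. Ccl8 stood at 2.59, 6.86 and 5.402 CPM in WT, mgR and mgR-LOS fibroblasts, Ccl9 at 2.19, 11.4 and 5.01 CPM and Ccl6 at 1.02, 7.83 and 4.51 CPM. Ccl21a stood at 0.546, 2.15 and 0.972 CPM, against 6042, 9389 and 7984 CPM in lymphatic ECs. The part of RNA released from lymphatic ECs in its fibroblast ratio was not tested. Ccl3 and Ccl4, attractants of monocytes and T cells, stood at 0.273, 2.39 and 1.83 CPM and 0.751, 6.82 and 3.11 CPM, with 46.5% and 43.8% of the mgR UMIs in 1 barcode, and Ccl12 at 0.683, 1.61 and 0.544 CPM.

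Cxcl3, Cxcl5 and Cxcl13 were close to absent from WT fibroblasts and came from few mgR barcodes. Cxcl5, a further Cxcr2 ligand, stood at 0.956 CPM in WT, 30.7 CPM in mgR and 7.38 CPM in mgR-LOS, a ratio of 32.1 (95% interval 19.1 to 59.01) for mgR over WT, from 47 mgR barcodes of which 1 held 39.8% of the UMIs. Cxcl3 had 0 UMIs in WT fibroblasts and stood at 15.9 CPM in mgR, at least 77.4-fold higher against a floor of 3 counts, and at 0.505 CPM in mgR-LOS. Its mgR UMIs lay in 34 barcodes, 1 of which held 51.3%. Cxcl13, which organizes B cell follicles, had 1 UMI in WT (0.0683 CPM), 39.4 CPM in mgR from 44 barcodes, and 1.17 CPM in mgR-LOS. The mgR over WT ratio was 576 (95% interval 103 to 22780). The ratio of mgR-LOS to mgR was 0.0296 (95% interval 0.0199 to 0.0425) for Cxcl13, 0.0319 (95% interval 0.0168 to 0.055) for Cxcl3 and 0.2404 (95% interval 0.204 to 0.281) for Cxcl5.

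Between mgR-LOS and mgR, 11 of 35 members compared in fibroblasts were past 2-fold lower (Ccl2, Ccl4, Ccl5, Ccl9, Ccl12, Ccl21a, Cxcl3, Cxcl5, Cxcl9, Cxcl13 and Cxcl14), against 2.27% of all genes, and 1 was higher (Cx3cr1, at 1.43, 1.58 and 3.77 CPM), against 2.75%. Of the 11, 7 remained (Ccl2, Ccl5, Ccl9, Cxcl3, Cxcl9, Cxcl13 and Cxcl14), and Cxcl9 held fewer than 100 UMIs. The higher call for Cx3cr1 did not remain. Ccl5, an attractant of T cells, stood at 2.39 CPM in WT, 14.99 CPM in mgR and 4.003 CPM in mgR-LOS, and Cxcl14, whose receptor is unsettled, at 1.16 CPM in WT, 8.74 CPM in mgR and 3.54 CPM in mgR-LOS. Against WT, mgR-LOS fibroblasts had 15 of 32 members past 2-fold higher (4.14% of all genes), 13 of which remained (10 with at least 100 UMIs), and 1 lower, Cxcr4 (3.31% of all genes). Cxcl12 and Ccl8 were the higher members that did not remain, and the lower call for Cxcr4 did not remain either. Cxcl12 stood at 2 (95% interval 1.93 to 2.08) times its WT level in mgR-LOS and 1.97 (95% interval 1.895 to 2.04) times in mgR, with thinned shares of 17.9%, 29.1% and 28.7% in WT, mgR and mgR-LOS. Cxcl10, the interferon-induced ligand of Cxcr3, was also higher in mgR-LOS, at 44.7 CPM in WT, 74.1 CPM in mgR and 119 CPM in mgR-LOS. For both, mgR-LOS was at or above mgR.

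**Figure D3:**
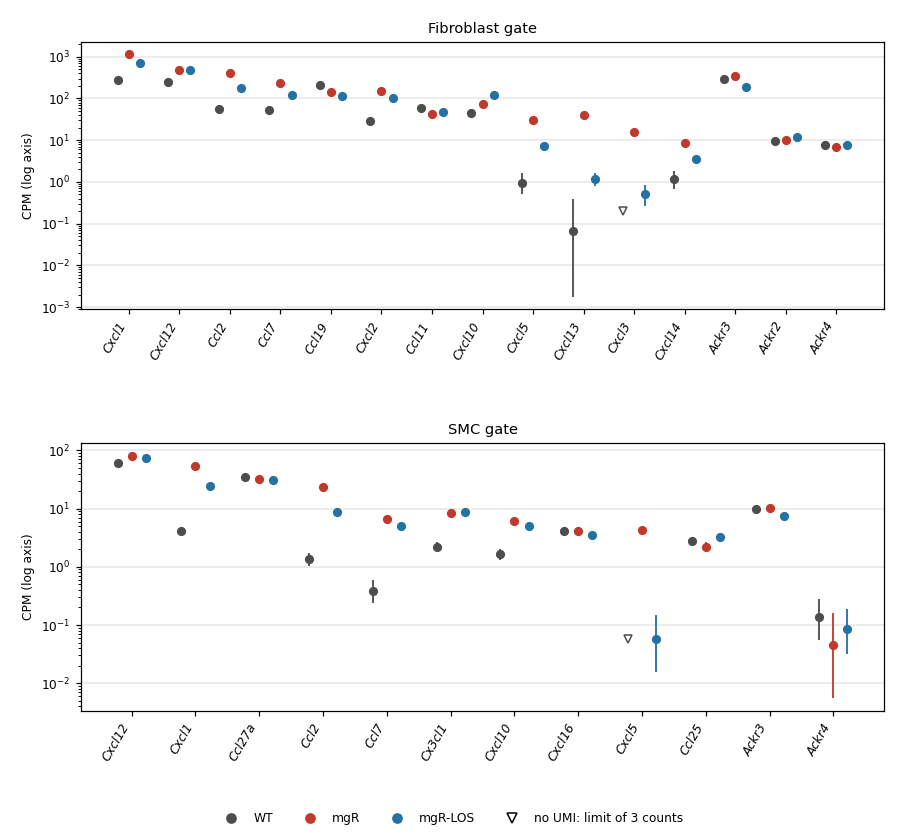
CPM (log axis) of 15 members in the fibroblast gate and 12 in the SMC gate, 1 point per library with its 95% exact Poisson interval. Open triangles mark a library with no UMI, at the level that 3 counts would give. In fibroblasts the mgR points of Cxcl1, Ccl2, Ccl7, Cxcl2, Cxcl5, Cxcl13 and Cxcl3 lie above those of mgR-LOS and WT, whereas the points of Ccl19, Ccl11, Ackr2 and Ackr4 differ by less than 2-fold.

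RNA released from macrophages can reach other barcodes, so 5 macrophage genes that are no members (Lyz2, Ctss, Tyrobp, Fcer1g and Ms4a7) were used as a yardstick. In fibroblasts they stood at 0.0373 to 0.0959% of their macrophage level in WT, 0.101 to 0.253% in mgR and 0.116 to 0.327% in mgR-LOS. Cxcl1 stood at 42.3%, 149% and 103% of its macrophage level, Ccl2 at 2.15%, 21.8% and 10.04%, Ccl7 at 3.37%, 15.8% and 9.72% and Cxcl2 at 0.319%, 1.84% and 1.55%, all above that range. Ccl12 (0.0915%, 0.165% and 0.117%), Ccl3 (0.0216%, 0.247% and 0.216%) and Ccl4 (0.0278%, 0.247% and 0.1598%) were within the range or below it in every library. The yardstick genes themselves were past 2-fold higher in mgR than in WT fibroblasts for 2 of 4 compared, with a median ratio of 2.546, and in mgR-LOS than in WT fibroblasts for 4 of 4, with a median of 2.909. Their part in the members' ratios was not tested.

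Within the fibroblast gate, ligands of the same kind tended to share barcodes in mgR, and less clearly in WT. Across mgR fibroblasts (n = 2350 barcodes of 1 library), log-scaled Ccl2 and Ccl7 had a Pearson r of 0.467, and the values in WT, mgR and mgR-LOS were 0.147, 0.467 and 0.328. For Cxcl1 with Ccl2 they were 0.167, 0.383 and 0.306, for Cxcl1 with Cxcl2 0.248, 0.341 and 0.287, and for the homeostatic pair Cxcl12 with Ccl19 0.203, 0.304 and 0.158. Ackr3 ran against that pair, with -0.118, -0.226 and -0.142 for Cxcl12 and -0.0915, -0.245 and -0.228 for Ccl19. In WT the highest r among the fibroblast pairs examined was 0.284, for Ccl11 with Ackr3 (0.0856 in mgR and 0.0665 in mgR-LOS). Ccl2 with Ccl11, at 0.208 in WT, was above Ccl2 with Ccl7, and Ccl2 with Cxcl2 stood at 0.0958 in WT. All are weak to moderate, and barcodes of a library share its depth and digestion. Detection also differed between the libraries. Ccl2, Ccl7 and Cxcl2 had a UMI in 60, 79 and 71 of 1306 WT fibroblasts, against 605, 575 and 587 of 2350 in mgR. The part of detection in the differences of r was not tested. The 23 mgR fibroblast barcodes with at least 3 Cxcl5 UMIs (median 15930 UMIs, against 12334 in the rest) carried Ccl2 at 3730 against 367 CPM in the remaining 2327, Ccl7 at 1904 against 207 CPM, Cxcl1 at 3515 against 1125 CPM and Cxcl3 at 872 against 4.66 CPM. Of the 23, 21 held a Cxcl1 UMI, 19 a Ccl7 UMI and 17 a Ccl2 UMI, but only 5 a Cxcl3 UMI. Cxcl12 in the 23 was similar, at 416 against 483 CPM, and the macrophage gene Lyz2 stood at 13.01 CPM (5 UMIs) against 24.9 CPM. The 11 mgR fibroblasts with at least 3 Cxcl13 UMIs carried Cxcl5 at 1648 against 22.3 CPM and Cxcl12 at 1311 against 478 CPM. Of the 11, only 3 held a Cxcl5 UMI, while 9 held a Cxcl12 UMI. These barcodes were chosen by a member's count, and no test was run on them.

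SMCs had a lower summed ligand level than fibroblasts, and many members were higher there in mgR than in WT. Of 27 members compared in SMCs, 19 were past 2-fold higher in mgR than in WT (5.15% of all genes) and 2 lower (4.4%). Of the 19, 11 remained (Ccl2, Ccl3, Ccl4, Ccl6, Ccl7, Ccl8, Ccl9, Ccl12, Cx3cl1, Cxcl1 and Cxcl2). With at least 100 UMIs also required, 8 of these 11 stayed, without Ccl3, Ccl8 and Ccl12. Cxcl1 stood at 4.099 CPM in WT, 55.1 CPM in mgR and 24.6 CPM in mgR-LOS, a ratio of 13.4 (95% interval 11.7 to 15.5) for mgR over WT and 0.446 (95% interval 0.419 to 0.475) for mgR-LOS over mgR. Cx3cl1, the membrane-bound ligand of Cx3cr1, stood at 2.23 CPM in WT, 8.58 CPM in mgR and 8.92 CPM in mgR-LOS, a ratio of 3.84 (95% interval 3.11 to 4.77). Ccl2 stood at 1.34 CPM in WT, 23.3 CPM in mgR and 8.804 CPM in mgR-LOS, but 1 barcode held 43.01% of its mgR UMIs, and Cxcl5 (4.25 CPM in mgR, 0 UMIs in WT) lay in 2 barcodes. Cxcl2 stood at 3.17, 19.7 and 14.8 CPM, Ccl7 at 0.389, 6.62 and 5.07 CPM, Ccl3 at 0.194, 1.67 and 1.896 CPM, Ccl4 at 0.427, 3.5 and 3.58 CPM and Ccl8 at 0.253, 0.835 and 1.08 CPM in WT, mgR and mgR-LOS, and Ccl6, Ccl9 and Ccl12 at 2.28, 4.54 and 1.74 CPM in mgR. Others past 2-fold higher in mgR included Cxcl10 at 6.096 CPM and Ccl5, Ccl11, Cx3cr1, Cxcl13 and Cxcr4, each below 1 CPM in mgR. Barcodes with SMC markers under 4 times fibroblast markers lay outside the SMC gate. Mixed barcodes held summed ligands at 759, 2932 and 2063 CPM in WT, mgR and mgR-LOS. Of 38 members compared there, 28 were past 2-fold higher in mgR than in WT (7.31% of all genes) and 0 lower (3.24%). Leukocyte markers beside SMC or fibroblast markers were met by 3.704%, 24.07% and 16.42% of mixed barcodes, and their part in these counts was not tested.

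The 2 lower members in mgR SMCs, Ccl19 at 6.96, 2.94 and 5.24 CPM in WT, mgR and mgR-LOS and Ccl21a at 3.63, 1.63 and 0.618 CPM, did not remain. For Ccl21a, 1 WT barcode had 88.8% of the UMIs, and without the highest barcode the ratio for Ccl21a was 3.27 in place of 0.448. Between mgR-LOS and mgR, 6 of 30 members were past 2-fold lower in SMCs (Ccl2, Ccl5, Ccl21a, Cxcl1, Cxcl5 and Cxcl13, against 2.08% of all genes) and 2 higher (Ccl6 and Ccl24, against 4.39%), and Cxcl1 alone remained. Against WT, 20 of 28 were past 2-fold higher in mgR-LOS (6.55% of all genes), of which 12 remained (9 with at least 100 UMIs). Ccl21a was lower (2.74%), a call that did not remain. Members within 2-fold in all 3 comparisons included Cxcl12, whose ratio for mgR over WT was 1.33 (95% interval 1.27 to 1.396), Cxcl16 at 4.14, 4.11 and 3.504 CPM, Ccl27a and Ackr3.

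The same macrophage yardstick was applied to SMCs. The 5 genes stood at 0.0186 to 0.0566%, 0.0972 to 0.147% and 0.132 to 0.259% of their macrophage level in WT, mgR and mgR-LOS SMCs, and were 5 of 5 past 2-fold higher in mgR (median ratio 4.435) and in mgR-LOS (6.318) than in WT. Cxcl1 stood above that range in each library, at 0.622%, 7.12% and 3.58%. Ccl2 was within it in WT and above it in the mutants, at 0.05002%, 1.24% and 0.501%, while Ccl6 (0.0303%, 0.1395% and 0.299%) was above it in mgR-LOS alone and Cxcl2 (0.0346%, 0.236% and 0.221%) in mgR alone. Ccl4 (0.0158%, 0.127% and 0.184%) was within it or below it in every library. Fibroblast markers in SMC barcodes had medians of 32.73, 34.99 and 28.2 UMIs per 10000, against 304.6, 263.9 and 330.5 in the fibroblast gate. The part of such transcripts in the SMC ratios was not tested.

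In blood ECs, 2 of 10 members compared were past 2-fold higher in mgR than in WT (3.44% of all genes) and 0 lower (2.39%). Cxcl1 stood at 38.4 CPM in WT, 134 CPM in mgR and 39.4 CPM in mgR-LOS, a ratio of 3.498 (95% interval 2.23 to 5.72), and Cx3cl1, which endothelium displays to capture monocytes, at 20.02 CPM in WT, 48.2 CPM in mgR and 31.8 CPM in mgR-LOS, a ratio of 2.41 (95% interval 1.26 to 4.997). The call for Cx3cl1 did not remain, since it was lost without the highest barcode and under other alternatives. The mgR level of Cxcl1 was the highest of the 3, and that of mgR-LOS was close to WT. Between mgR-LOS and mgR, 4 of 10 were past 2-fold lower (Ackr1, Ackr3, Cxcl1 and Cxcl9, against 2.27% of all genes) and 0 higher (3.3%). Ackr3 and Cxcl9 remained, Cxcl9 on fewer than 100 UMIs. Cxcl9, an interferon-gamma-induced ligand of Cxcr3, stood at 25.02 CPM in WT, 40.9 CPM in mgR and 1.27 CPM in mgR-LOS, the last from 1 UMI, with a ratio of 0.0311 (95% interval 0.000768 to 0.184) for mgR-LOS over mgR. Cxcl16, a membrane-bound scavenger and Cxcr6 ligand, stood at 76.7, 106 and 99.2 CPM and Cxcl2 at 45.04, 60.8 and 47.03 CPM in WT, mgR and mgR-LOS. Over mgR-LOS and WT, 0 of 8 were higher (4.21%) and 1, Ackr1, was lower (2.24%), a call that did not remain.

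Lymphatic ECs were few, and only 4 members could be compared between mgR and WT, with 0 past 2-fold either way (all genes, 3.12% higher and 2.21% lower). Ccl21a, the ligand that fills these cells, was 1.55 (95% interval 1.46 to 1.66) times as high in mgR as in WT and 0.8504 (95% interval 0.812 to 0.891) times as high in mgR-LOS as in mgR. Ccl2 stood at 0 CPM in WT, 15.4 CPM in mgR and 106 CPM in mgR-LOS (0 UMIs in WT allow up to 17.3 CPM) and was past 2-fold higher in mgR-LOS than in mgR, the 1 such member of 7 (2.46% of all genes), with 2 mgR-LOS barcodes and 64.7% of the UMIs in 1 of them. Cxcl12 stood at 17.3, 32.4 and 46.95 CPM and Ccl7 at 5.75, 9.25 and 37.6 CPM in WT, mgR and mgR-LOS lymphatic ECs. Ackr2 was the 1 lower member (2.69%). In mgR-LOS against WT, Ccl2 was higher and Ackr2 and Ackr3 were lower among 5 (3.38% and 3.19% of all genes). None of these calls in lymphatic ECs remained. In these cells 6 of 13 handling-response genes such as Fos and Jun were past 2-fold higher in mgR than in WT, and 9 of 13 in mgR-LOS than in WT.

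Macrophages had high levels of many ligands in all libraries, with few members past 2-fold. Cxcl2 stood at 9153 CPM in WT, 8351 CPM in mgR and 6679 CPM in mgR-LOS, and 81.8%, 80.8% and 79.5% of macrophages held a Cxcl2 UMI after thinning, against 0.386%, 1.74% and 1.36% of SMCs. Ccl4 stood at 2703, 2766 and 1945 CPM in WT, mgR and mgR-LOS, Ccl3 at 1264, 964 and 845 CPM, Ccl2 at 2680, 1879 and 1758 CPM and Ccl7 at 1555, 1445 and 1227 CPM. Ccl6 and Ccl9, Ccr1 ligands that rodents have in this form, stood at 1283, 1635 and 1663 CPM and 894, 928 and 934 CPM. Levels in these highly expressed ligands differed by less than 2-fold between any 2 libraries, and Ccl2 and Ccl7 shared barcodes with r of 0.737, 0.725 and 0.75, as did Ccl3 and Ccl4 with 0.707, 0.646 and 0.644, in WT, mgR and mgR-LOS (88, 977 and 531 barcodes).

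Of 30 members compared between mgR and WT macrophages, 6 were past 2-fold higher (3.53% of all genes) and 2 lower (1.67%). Ccl5, Ccl8, Ccr2 and Cxcl13 remained higher, and neither lower call remained without the highest barcode. Ccl8, a Ccr8 ligand in mice that marks resident-type macrophages, stood at 196 CPM in WT, 494 CPM in mgR and 379 CPM in mgR-LOS, a ratio of 2.53 (95% interval 2.17 to 2.96). Ccl5 stood at 8.05 CPM in WT, 56.5 CPM in mgR and 43.6 CPM in mgR-LOS, a ratio of 7.02 (95% interval 3.38 to 17.6) that rests on 7 WT UMIs. Cxcl13 stood at 0 CPM in WT, 93.5 CPM in mgR and 1.05 CPM in mgR-LOS, where 0 UMIs in WT allow up to 3.45 CPM, but 1 mgR barcode of 14 held 67.04% of the UMIs. Ccl17, a Ccr4 ligand of dendritic cells, stood at 1.15, 20.9 and 24.2 CPM and Ccl27a at 0, 5.17 and 4.47 CPM. The lower members were Ccl22 at 13.8, 3.06 and 16.3 CPM and Cxcl9 at 97.8, 24.8 and 12.3 CPM, and all 85 WT UMIs of Cxcl9 came from 1 barcode.

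Between mgR-LOS and mgR macrophages, 3 of 33 members were past 2-fold lower (Ccl12, Cxcl9 and Cxcl13, against 2.12% of all genes) and 2 higher (Ccl22, and Cx3cl1 at 5.75, 1.18 and 3.94 CPM, against 1.89%). Of these 5, all but Cxcl9 remained, and Ccl22 and Cx3cl1 held fewer than 100 UMIs. Ccl12, a Ccr2 ligand found in mice, stood at 746 CPM in WT, 980.1 CPM in mgR and 466 CPM in mgR-LOS, a ratio of 0.475 (95% interval 0.451 to 0.5001). Against WT, 2 of 27 were higher in mgR-LOS (Ccl5 and Ccl17, against 4.07%) and 2 lower (Cxcl3 and Cxcl9, against 1.45%), with Cxcl3 at 50.6, 37.9 and 24.7 CPM. Ccl5 and Ccl17 remained, Ccl17 on fewer than 100 UMIs, and both lower calls were lost without the highest barcode. Members between the fold limits included Cxcl1 at 659, 774 and 686 CPM, Cxcl10 at 239, 210.1 and 293 CPM, Cxcl16 at 439, 436 and 377 CPM and Ccl24, which recruits eosinophils, at 322, 164 and 289 CPM. Cx3cr1 was lower in mgR-LOS than in mgR, with a ratio of 0.635 (95% interval 0.585 to 0.689), short of 2-fold in the whole gate. Resident-type macrophages (56, 503 and 320 barcodes, marked by Folr2, Mrc1 and similar genes) had Cx3cr1 at 284, 273 and 116 CPM, with a ratio of 0.424 (95% interval 0.371 to 0.483) for mgR-LOS over mgR. These levels were below those of the whole macrophage gate, at 314, 316 and 201 CPM in WT, mgR and mgR-LOS. In the resident type, 5 of 26 members were past 2-fold lower in mgR-LOS than in mgR (among them Ccl12, Cx3cr1, Cxcl3 and Cxcl13, against 1.53% of all genes) and 3 higher (Ccl5, Cxcl10 and Cxcr3, against 1.98%). For mgR over WT, 5 of 24 were higher (2.73%) and 0 lower (1.79%), and for mgR-LOS over WT 4 of 22 were higher (3.7%) and 2 lower (1.65%). Ccr2 stood at 75.8, 199 and 149 CPM in the resident type and 178, 406 and 282 CPM in the other macrophages, and was past 2-fold higher in mgR than in WT in both. Calls within these subtypes were not checked without the highest barcode or under the alternatives.

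**Figure D4:**
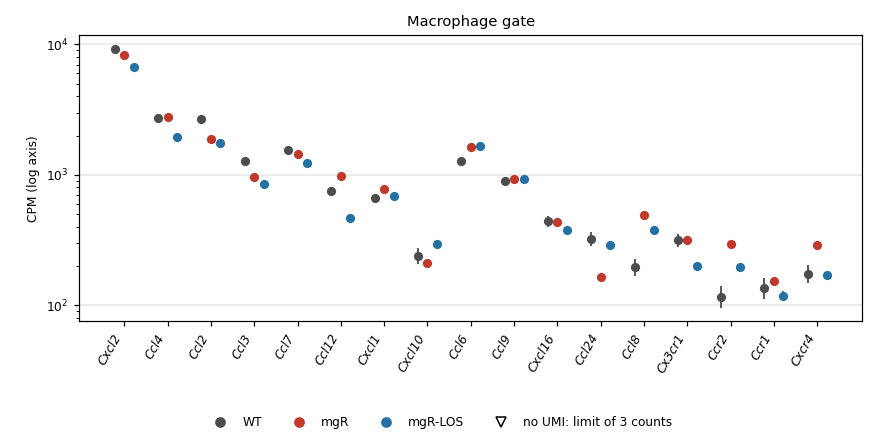
CPM (log axis) of 13 ligands and 4 receptors in the macrophage gate, 1 point per library with its 95% exact Poisson interval. The points of Cxcl2, Ccl4, Ccl6, Ccl9 and Cxcl16 differ by less than 2-fold, those of Ccl8 and Ccr2 are lowest in WT, and that of Ccl12 is lowest in mgR-LOS.

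In T cells the WT gate held 21 barcodes, and single cells set several levels. Of 19 members compared between mgR and WT, 7 were higher (Ccl6, Ccl9, Ccl17, Ccl22, Ccr7, Cxcl2 and Cxcl10, against 4.45% of all genes) and 5 lower (Ccl1, Ccl3, Ccl4, Ccr9 and Xcl1, against 4.88%). Of these, Cxcl2 remained higher, on fewer than 100 UMIs, and Ccl3, Ccl4 and Xcl1 lower, over the 6 alternatives that could be compared. Xcl1, which recruits Xcr1-bearing dendritic cells, stood at 646 CPM in WT, 64.4 CPM in mgR and 42.6 CPM in mgR-LOS, from 4, 14 and 2 barcodes. All 73 WT UMIs of Xcl1 lay in this gate, against 43 of 164 in mgR and 12 of 18 in mgR-LOS. Ccl4 stood at 3346 CPM in WT, 22.5 CPM in mgR and 0 CPM in mgR-LOS, and its WT UMIs came from 3 barcodes, while Ccl1, a Ccr8 ligand, stood at 602, 74.9 and 106 CPM. Ccl5, a product of effector T cells, stood at 1779 CPM in WT, 1123 CPM in mgR and 35.5 CPM in mgR-LOS. Ccl6 stood at 0, 95.9 and 7.101 CPM, Ccl9 at 0, 82.4 and 7.101 CPM, Cxcl2 at 0, 94.4 and 56.8 CPM and Cxcl10 at 79.7, 295 and 31.9 CPM in WT, mgR and mgR-LOS, and of the macrophage yardstick genes 2 of 4 compared in T cells were past 2-fold higher in mgR than in WT and 3 of 4 lower in mgR-LOS than in mgR. Their part in these ratios was not tested. The Ccl17 and Ccl22 UMIs of mgR T cells, 211 and 163 CPM, all lay in 1 barcode. Between mgR-LOS and mgR, 6 of 17 were lower (Ccl5, Ccl6, Ccl9, Ccl17, Ccl22 and Cxcl10, against 5.27%) and Ccr9 was higher (7.83%). Ccl5, Cxcl10 and Ccr9 remained, Ccr9 on fewer than 100 UMIs. Against WT, mgR-LOS T cells had 5 of 9 lower (Ccl1, Ccl3, Ccl4, Ccl5 and Xcl1, against 3.44%) and 0 higher (4.31%), and of the 5 all but Ccl1 remained.

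Dendritic cells could be compared between mgR-LOS and mgR. Of 21 members, 5 were past 2-fold higher in mgR-LOS (Ccl5, Ccl17, Ccl22, Ccr7 and Cxcl2, against 2.71% of all genes) and 6 lower (Ccl2, Ccl3, Ccl4, Cx3cr1, Cxcl1 and Cxcr4, against 2.8%). Ccr7, Ccl17 and Ccl22 are genes of mature, migrating dendritic cells. The ligands with the highest levels in the gate were Ccl6 at 734 and 866 CPM and Ccl9 at 674 and 703 CPM in mgR and mgR-LOS. Ccl17 stood at 65.2 CPM in mgR and 417 CPM in mgR-LOS, and Ccl22 at 65.2 and 222 CPM. None of the 5 higher calls remained, and 1 barcode held 95.6% of the Ccl5 UMIs in mgR-LOS. Ccl3, Ccl4, Cx3cr1 and Cxcr4 remained lower (Ccl3 and Cx3cr1 on fewer than 100 UMIs), with Ccl4 at 372 CPM in mgR and 133 CPM in mgR-LOS.

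Neutrophils and monocytes could be described in mgR only. The 51 neutrophil barcodes carried Cxcl2 at 25310 CPM, Ccl4 at 4694 CPM, Cxcl10 at 3958 CPM, Ccl3 at 1567 CPM and Cxcl3 at 966 CPM, beside the receptors Cxcr2, Ccr1 and Cxcr4. The 55 monocytes carried Cxcl2 at 3773 CPM, Cxcl10 at 1050 CPM, Ccl4 at 875 CPM and Ccl6 at 768 CPM. The 155 mgR B cell barcodes held Cxcl2 at 200.2 CPM and Ccl6 at 184 CPM. These were 2.4% and 11.2% of the macrophage levels. The macrophage yardstick genes spanned 0.443 to 29.1% in B cells, a range too wide to tell macrophage RNA from RNA of the B cells themselves. The part of macrophage RNA in the Cxcl2 and Ccl6 levels was not tested. In Schwann cells 4 members could be compared between mgR-LOS and mgR, with Cxcl2 and Cxcl12 higher (4.28% of all genes) and Cxcl10 lower (4.87%), and in mesothelial cells Cxcl10 was lower, the 1 of 5 (5.62%), with 0 higher (4.22%). Cxcl10 stood at 261 and 0 CPM in Schwann cells and at 64.5 and 0 CPM in mesothelial cells of mgR and mgR-LOS. Calls in these gates were not checked without the highest barcode or under the alternatives. Handling-response genes also differed there, with 7 of 13 past 2-fold higher in Schwann cells and 13 of 13 lower in mesothelial cells of mgR-LOS, and their part in these ratios was not tested.

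Over whole libraries, the summed ligands stood at 659, 3419 and 1459 CPM, the receptors at 18.6, 184 and 59.5 CPM and the atypical receptors at 81.1, 134 and 63.1 CPM in WT, mgR and mgR-LOS. Leukocyte gates held 2.52% of WT barcodes, 20.1% of mgR barcodes and 6.00% of mgR-LOS barcodes. With at most 5% mitochondrial UMIs these shares were 5.503%, 26.3% and 9.21%, and the mgR over WT ratio of the sums was 3.12 in place of 5.191 for ligands and 5.401 in place of 9.898 for receptors. In such sums, more cells of a type and more RNA per cell cannot be told apart. Of the 46 described members, 37 were past 2-fold higher in mgR than in WT over all barcodes (14.6% of all genes) and 1, Ccl1, was lower (4.19%), whereas within the pooled leukocyte gates 7 of 39 were higher (2.99%) and 5 lower (2.21%). Between mgR-LOS and mgR, 30 of 46 were lower over all barcodes (8.38%) and 0 higher (2.71%), and within leukocytes 5 of 40 were lower (3.27%) and 3 higher (2.48%). Between mgR-LOS and WT, 30 of 45 were higher over all barcodes (8.7%) and 2 lower (3.18%), against 4 higher (3.33%) and 4 lower (2.19%) of 37 within leukocytes.

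**Figure D5:**
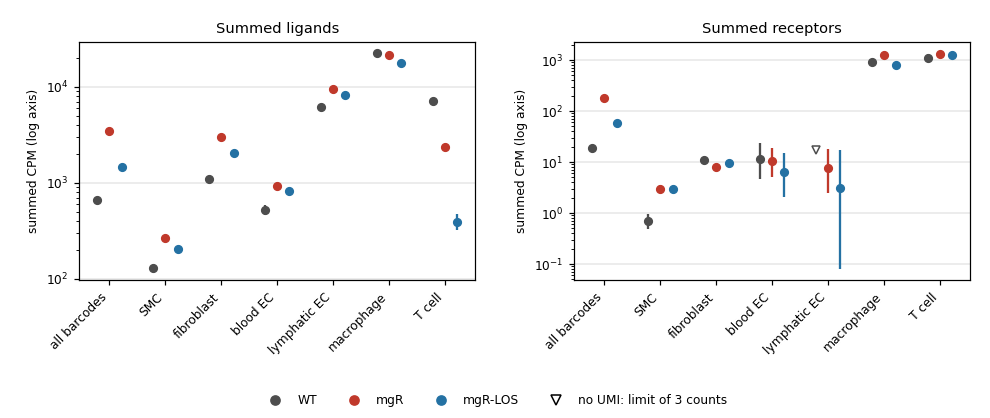
Summed CPM (log axis) of all ligand rows and of all classical receptor rows over all kept barcodes and within 6 gates, 1 point per library with its 95% exact Poisson interval. Open triangles mark a sum of 0 at the level of 3 counts. The sums over all barcodes are lowest in WT and highest in mgR, while those of the macrophage gate lie within a factor below 2 of each other.

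Textbook pairs of ligand and receptor were set side by side in mgR, the library with most gates. Some lay in the same gate. Neutrophils held Cxcl2 and Cxcl3 with Cxcr2, and Ccl3 with Ccr1, and macrophages held Ccl2 at 1879 CPM with Ccr2 at 293 CPM. Others lay apart. Ccl2 and Ccl7 were held by macrophages and, at 410.2 and 229 CPM in mgR, by fibroblasts, while Ccr2 in mgR fibroblasts stood at 0.504 CPM and in monocytes at 833 CPM. Monocytes also held Ccl2, at 666.5 CPM. Among the named gates, Cxcl1 and Cxcl5 were highest in fibroblasts in mgR, and Cxcr2 in neutrophils, whereas in WT Cxcl1 was highest in macrophages. Ccl19 lay in fibroblasts and Ccl21a in lymphatic ECs, with Ccr7 on B cells and dendritic cells and their scavenger Ackr4 spread at low level over fibroblasts and ECs. Cxcl12 lay in fibroblasts and blood ECs, its scavenger Ackr3 in both of these and, at the highest level, in lymphatic ECs, and Cxcr4 mainly on leukocytes. Cxcl16 lay in macrophages (436.5 CPM), monocytes (265 CPM), dendritic cells (233 CPM) and, at 106 CPM, blood ECs, and Cxcr6 in T cells. Cx3cl1 lay in blood ECs and fibroblasts, and Cx3cr1 in macrophages. Among the named gates, Xcl1 was highest in T cells and Xcr1 in dendritic cells, at 64.4 and 88.2 CPM in mgR. The T cell gate held 43 of the 164 Xcl1 UMIs of the mgR library. An NK cell-like gate held 9 mgR barcodes, under the limit of 20, and was not ranked. Cxcl13 lay in few macrophage and fibroblast barcodes of mgR and at 149.6 CPM in barcodes that met no gate, and Cxcr5 in B cells.

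Among 20 further genes of chemokine signaling (platelet chemokines, G proteins, arrestins, kinases and regulators), fibroblasts had 3 of 17 compared past 2-fold higher in mgR than in WT (4.7% of all genes) and 2 lower (4.48%). Dpp4, a protease that trims the ends of chemokines, stood at 20.9 CPM in WT, 52.7 CPM in mgR and 42.98 CPM in mgR-LOS in fibroblasts, and Rgs1, a brake on chemokine receptor signaling in leukocytes, at 0.137, 1.58 and 1.01 CPM. Pf4, a platelet and macrophage chemokine, was the other higher gene, and Grk3 and Pik3r5 were lower. Macrophages had 0 of 19 past 2-fold either way in each of the 3 comparisons. Over all genes the shares were 5.2% for mgR over WT, 4.01% for mgR-LOS over mgR and 5.51% for mgR-LOS over WT. Of 15 compared in SMCs, Rgs1 was higher (5.15% of all genes) and Rgs2 lower (4.4%) in mgR than in WT. Rgs2, which damps Gq signaling in vascular muscle, stood at 54.2 CPM in WT, 9.94 CPM in mgR and 14.2 CPM in mgR-LOS. The macrophage yardstick genes had median mgR over WT ratios of 2.546 in fibroblasts and 4.435 in SMCs. Their part in the Pf4 and Rgs1 ratios was not tested. Of 13 handling-response genes, 1 was past 2-fold higher and 2 lower in mgR than in WT SMCs, 0 and 1 in fibroblasts, and 0 and 1 in macrophages.

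Members under 100 UMIs over the 3 libraries were Ccr6 (44 UMIs), Ccl28 and Ccr4 (36 each), Cxcl17 (26), Ccr3 and Ccr10 (25 each), Ccr8 (21), a second Ccl21a row (7), Cxcr1 (6), Ccl20 (5), Ccl21b and Cxcl15 (2 each) and Ccr1l1 (1). No UMI was counted for 8 rows, namely Ccl26, Ccl27b, both rows of Ccl21c, 2 further rows of Ccl27a, and further rows of Ccl19 and Ccl21b. Among the 67 rows, 14 lie on chromosome 11, 14 on chromosome 9, 10 on chromosome 5 and 7 on unplaced contigs, where most of the copies with 0 UMIs are. Ccr3, Ccr4, Ccr8 and Ccr10, the receptors of Ccl11, Ccl17 and Ccl22, Ccl8, and Ccl27a, were thus close to undetected at this depth although their ligands were present.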

How the data were processed

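The deposited values were unnormalized counts of UMIs per gene and barcode that the authors made from 10x 3′ v3.1 libraries with Cell Ranger on GRCm38 (mm10). File headers name version 5.0.1 for WT and mgR and 6.0.1 for mgR-LOS, whereas the submitters' processing notes list 6.0.1 for all. The ascending aortas had been digested with elastase and collagenase. The limits on barcodes were those of the study's methods, 600 to 5000 detected genes and no more than 10% of UMIs from mitochondrial genes. All count columns were mapped (0 columns left out).

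Barcodes were gated with fixed marker lists, and the thresholds were set after the spread of marker counts was seen. Barcodes meeting more than 1 class, or reaching the SMC or fibroblast UMI limit without passing either gate, were set apart as mixed. An artificial-neighbor score called 230, 522 and 1295 barcodes (4.29%, 6.46% and 10.2%) as doublets in WT, mgR and mgR-LOS, and these were removed only in an alternative. UMIs were summed per gate and divided by all UMIs of the gate (CPM). Intervals were exact Poisson (CPM), Clopper-Pearson (shares) and conditional binomial (ratios), at 95%. With 1 library per condition no test or adjusted p-value was computed, and PCR and cell capture error are not covered. A ratio was called past 2-fold as defined above in gates of at least 20 barcodes. The rule was tested on simulated data that held counting error alone, so that test does not cover variation between cells, mice or captures. For shares, barcodes were thinned to 1000 UMIs, leaving out 7, 7 and 8 barcodes with fewer.

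The members, gene lists and yardstick genes were chosen with earlier results of these data known. The rule for named genes took receptors with at least 100 UMIs, the 4 highest ligands per gate and members past 2-fold in a gate. The values of 1 member are not reported here, though counts and sums over members include it. Alternatives changed the limits on barcodes, thresholds, classes (Leiden clusters), scaling, count filter, fold and thinning depth. Leaving out each member's highest barcode was chosen after seeing the data. Calls were checked in these ways only in the SMC, fibroblast, blood EC, lymphatic EC, macrophage, dendritic cell and T cell gates. Python 3.11.15, numpy 2.4.6, pandas 2.3.3, scipy 1.17.1, scikit-learn 1.9.0 and leidenalg 0.10.2 were used.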

Additional observations from a re-analysis of the deposited data

Results flagged for a closer look

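Ccl3, Ccl4 and Ccl5 lay on opposite sides of 1 in different cell classes under the same comparison, each past 2-fold without the highest barcode and under the alternatives for barcode limits, classes and scaling that could be compared. A filter of at least 100 UMIs would leave out Ccl3 in all 3 classes for mgR over WT and in fibroblasts and T cells for mgR-LOS over WT, and Ccl4 in fibroblasts for mgR-LOS over WT. These differences between classes were not tested, since each condition has 1 library. For mgR over WT, Ccl3 had ratios of 8.6 in SMCs and 8.74 in fibroblasts but 0.00256 in T cells, and Ccl4 had 8.19, 9.08 and 0.00671. For mgR-LOS over WT, Ccl3 had 9.76 in SMCs and 6.69 in fibroblasts, and Ccl4 had 8.37 and 4.14, while both had 0 UMIs in mgR-LOS T cells, at least 54.9-fold (Ccl3) and 314-fold (Ccl4) lower than in WT against a floor of 3 counts. Ccl5 had 5.42 in macrophages and 0.01995 in T cells for mgR-LOS over WT. The macrophage ratio of Ccl5 rests on 7 WT UMIs, 57.14% of them in 1 barcode. Its T cell ratio rests on 10 mgR-LOS UMIs, 50% of them in 1 barcode. The WT T cell gate held 21 barcodes, and 1 of them held 53.03% of the Ccl3 UMIs and 52.91% of the Ccl4 UMIs. In fibroblasts, 1 mgR barcode held 46.48% of the Ccl3 and 43.84% of the Ccl4 UMIs, and both genes were within or below the range of the macrophage yardstick genes there. In SMCs, Ccl4 was within or below that range in every library, and Ccl3 was above it in mgR alone.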

How the results depend on the processing

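Without replicates each condition rests on a single pool of mice. No paired analysis was possible because each condition has 1 library, and no library could be left out. Of 164 alternative values of the main results, 130 moved by less than counting error or 1.5 times in a count, 34 moved and 0 reversed. Shares and counts could not be labeled reversed, so that label was open only to the ratios of summed levels. A further 1348 values covered single members, counts of members past 2-fold by gate, and the mgR-LOS over WT ratios of summed levels. Of these, 1122 were stable, 210 moved and 16 reversed, and counts could again not reverse. The cause of each difference below was not tested.

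With at least 200 genes and no upper limit on genes, the leukocyte share in mgR was 18.08%, the summed ligand ratio 5.024 for mgR over WT and 0.4523 for mgR-LOS over mgR, and the receptor ratios 9.085 and 0.3582. With at most 5% mitochondrial UMIs, the leukocyte shares were 5.503%, 26.3% and 9.21% in WT, mgR and mgR-LOS, the ligand ratios 3.12 and 0.4515, the receptor ratios 5.401 and 0.3553, and 12 members were higher in mgR-LOS than in WT SMCs. There Cxcl10 in SMCs was 0.9894 for mgR-LOS over WT, and Ccl21a was 5.506 for mgR over WT and 3.052 for mgR-LOS over WT. With doublets removed the mgR-LOS over mgR ratios were 0.4374 (ligands) and 0.3377 (receptors), and Ccl21a in SMCs was 3.4 and 1.501. With thresholds lowered 2-fold the leukocyte shares were 18.13% (mgR) and 5.448% (mgR-LOS), and Ccl21a was 3.88 and 1.517. With thresholds raised 2-fold Ccl5 in SMCs was 1.322 for mgR-LOS over mgR. With clusters the leukocyte shares were 21.79% and 7.264%, Ccl21a was 3.896 and 1.487, Ccl2 in SMCs was 1.063 for mgR-LOS over mgR, and 7 members were higher in mgR-LOS than in WT macrophages.

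With at least 100 UMIs, 10 members were higher in mgR than in WT SMCs, 10 in mgR-LOS than in WT SMCs, and 1 in mgR-LOS than in WT macrophages. At 1.5-fold, 7 members were lower in mgR-LOS than in mgR macrophages and 4 higher in mgR-LOS than in WT. Without the highest barcode of each member, 4 were higher in mgR-LOS than in WT macrophages, Ccl21a in SMCs was 3.265 and 1.408, Cxcl9 in macrophages at least 4.804-fold higher in mgR and 2.056-fold in mgR-LOS than in WT, and Ccl17 in macrophages 0.9539 for mgR over WT, the last 3 against a floor of 3 counts. Shares thinned to 2000 UMIs and unthinned in mgR were 27.9% and 40.84% for Ccr2 in macrophages, 85.79% and 89.56% for Cxcl2 in macrophages, 45.16% and 62.3% for Cxcl1 in fibroblasts, and 42% and 71.83% for Cxcl12 in fibroblasts.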
